A study of Homo sapiens with 6 samples.

Results

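The 36 genes described here encode proteins of G2 and mitosis: the kinases and cyclins of mitotic entry, the spindle checkpoint and its ubiquitin ligase partners, mitotic kinesins, centromere and kinetochore proteins, spindle proteins, cytokinesis factors and chromosome proteins. They were chosen by what their products do, with earlier results of these data already known. Each gene was read from its probe set with the highest mean among the probe sets annotated to it alone, and all 36 passed the filter on low values, beside 14428 genes tested in all. Total RNA came from 3 lines of A2058, an established human melanoma cell line. TET2M overexpressed the construct that the labels call TET2M and, in another field, Mut. TET2WT overexpressed the wild-type construct of TET2, an enzyme that oxidises 5-methylcytosine in DNA, and Mock was their control line. Each line was kept for 7 days in DMEM whose glucose was high, at 4.5 g/L, or normal, at 1 g/L, and read on 1 Affymetrix array per concentration, which made 6 arrays. The labels do not say whether a line is a clone or a pool, which promoter drives the constructs, or which change TET2M carries. All values are log2 values as the authors deposited them, all differences are log2 differences, and ± is the standard error from limma. With 1 array for each combination, limma's p-values reflect no more than the scatter among single arrays, part of which may be technical, and the number of arrays limits the precision. In the model of line and glucose, that scatter is how the glucose difference varies over the 3 lines. A glucose response that truly differs between lines therefore counts as scatter. Each construct is in 1 line, so an effect of the construct cannot be told apart from one of the line.

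Cells that leave S phase accumulate cyclin A and cyclin B bound to CDK1, whose activity starts mitosis, and the anaphase-promoting complex (APC/C) ends it by marking cyclin B and securin for destruction. The genes of this program are transcribed late in the cycle. In resting cells the DREAM complex holds them down at the cell cycle genes homology region (CHR), a short promoter element near the transcription start, and in G2 the same MuvB core works there with B-MYB and FOXM1 as an activator. A CCAAT box, bound by NF-Y, often lies upstream of the CHR. The summed level of these transcripts is widely used as a sign of how many cells are dividing.

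Promoter windows of 300 bases, 250 before and 50 after the RefSeq start on GRCh38.p14, were at hand for 31 of the 36 genes. AURKA, BIRC5, TTK, UBE2C and TPX2 are named only. The CHR was searched as TTTGAA and TTTAAA and the CCAAT box as CCAAT, each on both strands, and matches of both motifs may overlap by 1 base at their ends. The 31 genes had 37 windows, and 30 of these (81.1%) held a CHR, against 24% of 35097 windows of all genes and 17.4% of the 16624 windows of genes tested here. A CCAAT box was found in 78.4% of the members' windows, against 34.6% of all windows. Both motifs stood together in 64.9% of the members' windows, against 9.27% of all windows and 6.77% of those of tested genes. From 100 bases before to 20 after the start, a stretch chosen after the positions had been seen, both stood together in 45.9% of the members' windows and in 2.08% of all windows. A match of letters is a description and not a bound site. The next lines give that stretch, 120 bases written 5′ to 3′ on the strand of the gene, for 6 genes. KIF23, KIF11 and KIF4A stood at an end of at least 1 comparison given later. ASPM, PLK1 and CDC20 varied little over the arrays on the probe sets used. Capitals mark the matches: a CHR reads as given above or as TTCAAA on the other strand, and a CCAAT box there reads ATTGG.
KIF23: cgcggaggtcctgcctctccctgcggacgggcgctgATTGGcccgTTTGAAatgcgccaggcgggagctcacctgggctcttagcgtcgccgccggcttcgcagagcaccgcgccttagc
KIF11: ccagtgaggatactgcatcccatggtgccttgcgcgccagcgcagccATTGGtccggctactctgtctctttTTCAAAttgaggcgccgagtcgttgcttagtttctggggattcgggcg
KIF4A: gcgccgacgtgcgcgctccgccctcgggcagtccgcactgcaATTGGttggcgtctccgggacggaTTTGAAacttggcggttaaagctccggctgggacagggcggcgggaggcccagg
ASPM: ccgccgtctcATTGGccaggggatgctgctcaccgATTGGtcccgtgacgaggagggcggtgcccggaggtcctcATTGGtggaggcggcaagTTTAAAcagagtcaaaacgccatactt
PLK1: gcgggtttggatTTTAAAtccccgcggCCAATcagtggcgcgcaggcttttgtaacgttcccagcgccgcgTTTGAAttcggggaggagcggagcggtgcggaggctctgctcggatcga
CDC20: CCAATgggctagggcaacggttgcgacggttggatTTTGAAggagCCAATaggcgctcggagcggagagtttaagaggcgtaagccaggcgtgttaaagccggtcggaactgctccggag
These stretches lie at chr15:69414249-69414368 (plus strand), chr10:92593030-92593149 (plus), chrX:70290004-70290123 (plus), chr1:197146650-197146769 (minus), chr16:23678789-23678908 (plus) and chr1:43358881-43359000 (plus) on GRCh38.p14. All 6, which were picked by hand, hold both motifs in this stretch, and among all 31 genes with a window 17 do. The 6 therefore do not stand for the set. CENPF, which varied least on the probe set used, held no CHR in this stretch and is not printed. Among the other genes named at an end of a comparison, CENPE held a CHR alone in its whole window, and NEK2 and AURKB a CCAAT box alone. ECT2, MAD2L1, DLGAP5, CENPA, CENPF, CCNB1, CCNB2, CDC25C and MKI67 held both motifs in at least 1 whole window.

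**Figure D1:**
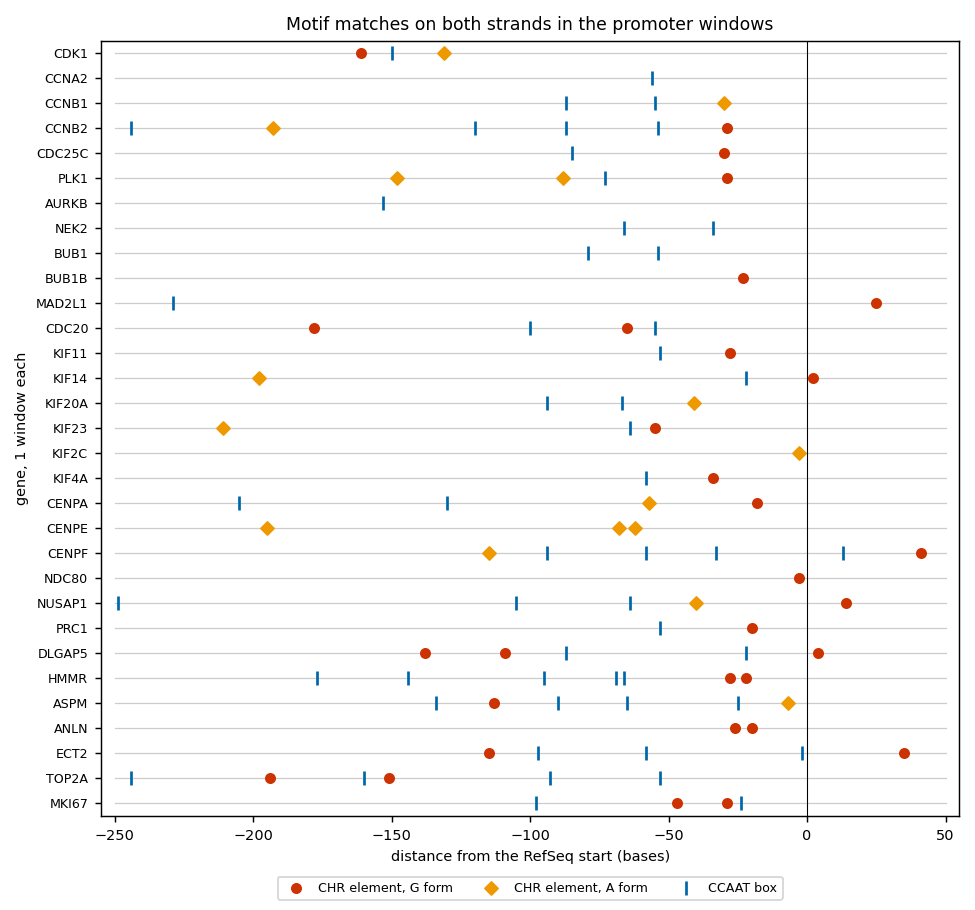
Matches of the CHR (circles for TTTGAA, diamonds for TTTAAA) and of the CCAAT box (bars) on either strand, by distance in bases from the RefSeq start (x axis), in 1 window for each of 31 genes (y axis). For a gene with several windows the one with the lowest coordinate that holds a match is drawn. Of the 101 matches drawn, 65 lie within 100 bases before the start.

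TET2 itself checked the labels. It read 7.57 with high and 7.37 with normal glucose in TET2M, 9.54 and 9.68 in TET2WT, and 3.81 and 4.13 in Mock, so that the 3 lines did not overlap. A second TET2 probe set kept this order, at 4.57 and 3.89 in TET2M, 6.64 and 6.87 in TET2WT, and 2.10 and 2.64 in Mock. The third did not separate the lines, at 5.41 and 5.31 in TET2M, 5.30 and 5.15 in TET2WT, and 5.23 and 5.22 in Mock. The melanocyte lineage factors SOX10 (9.38 to 9.65) and MITF (6.30 to 6.96) were present on all 6 arrays, while the means of the pigment genes MLANA, TYR and TYRP1 lay below the low-value level of 2.64 and that of the pigment gene PMEL above it (3.55 to 4.20). The means of the leukocyte gene PTPRC, the epithelial genes EPCAM and CDH1 and the endothelial gene CDH5 lay below it too. The other listed keratinocyte, blood and endothelial markers tested lay above it, with means from 2.65 for CD3E to 9.34 for KRT10, among them KRT14 at 5.64, PECAM1 at 4.33, HBB at 3.76, VWF at 3.45 and DSG3 at 3.15.

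On the probe sets used, the 36 genes varied little. The range over the 6 arrays had a median of 0.285 for them, against 0.38 for all genes tested and 0.34 for the 6747 other genes whose mean lay between the members' lowest and highest mean. It went from 0.08 for CENPF, a kinetochore protein, to 0.66 for ECT2, the exchange factor that activates RhoA for cytokinesis. In 5 of the 36 the range reached 0.5 (ECT2, KIF23, TTK, MAD2L1 and KIF11), as it did in 30.3% of all genes. It reached 1 in 0 of them, against 4.03% of all genes. Other probe sets that passed the filter could vary more or less. Those of CENPF read 5.14 to 5.96 and 2.34 to 3.19, and the third of MAD2L1 read 3.28 to 4.49. The second of KIF2C read 7.65 to 7.67. No array carried the highest or lowest value of all members. Mock at high glucose was the highest array for 16 of the 36 genes, and TET2WT at normal glucose was the lowest for 16. Of all genes 18.5% had their highest value in Mock at high glucose and 19.2% their lowest in TET2WT at normal glucose. TET2WT at normal glucose was the highest array for 0 members (18.5% of all genes), and TET2M at high glucose the lowest for 0 (16.6%).

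**Figure D2:**
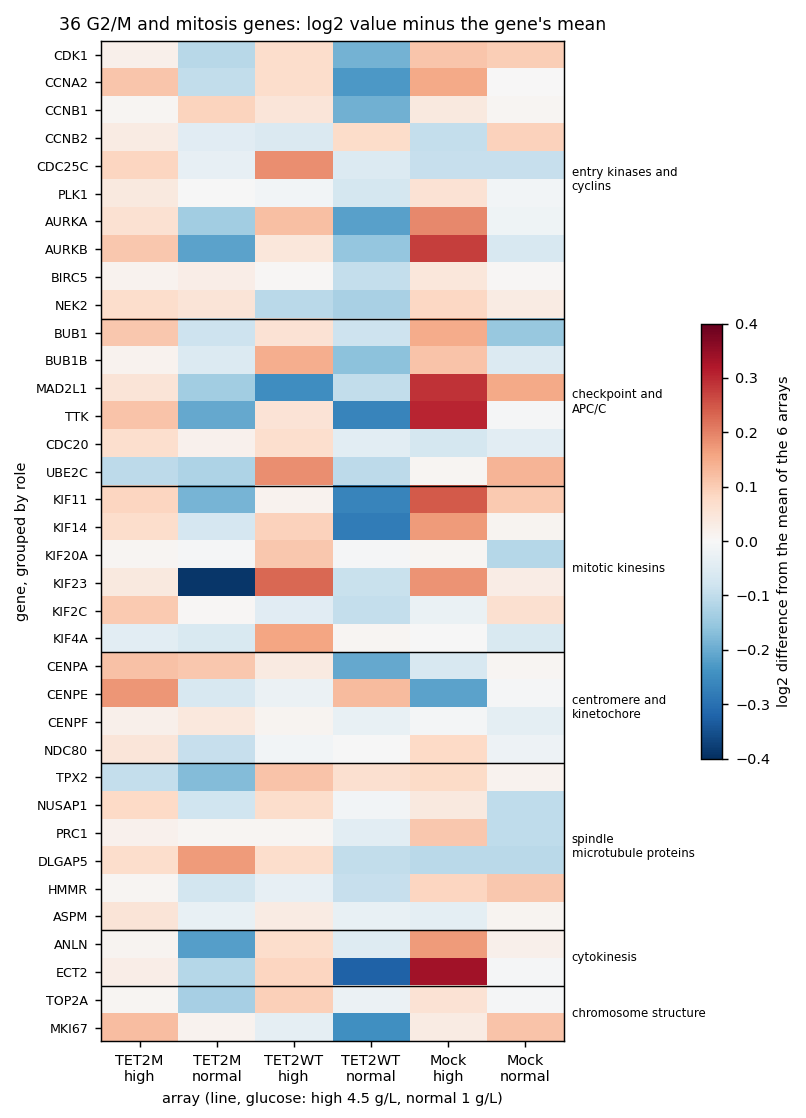
Log2 value of each of the 36 genes (rows, grouped by role) on each of the 6 arrays (columns), as the difference from the gene's mean over the arrays, on a colour scale from -0.4 to 0.4. The high-glucose column is the redder of each line's pair for most genes, and KIF23 in TET2M at normal glucose is the deepest blue.

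The first comparison set high against normal glucose over the 3 lines. Most of the mitotic genes read slightly higher at high glucose, and 0 of the 36 passed at an adjusted p under 0.05 in limma, beside 1 gene of all tested (0.00693%). The median difference was 0.078 over the members and -0.02 over all genes. It was positive in 34 of the 36 genes, against 43.4% of all genes, and CCNB2 and CENPE were the exceptions. At an unadjusted p under 0.05, 9 members were higher and 0 lower, against 7.18% and 8.19% of all genes. In 20 members the high-glucose array was the higher one in all 3 lines, against 16.7% of all genes, and the opposite held in 0 members, against 20.7%. In 12 members every high-glucose array exceeded every normal-glucose array, against 6.04% of all genes. The reverse was seen in 0 members, against 7.8%. RNA was taken from whole cultures, so a larger share of cells in G2 and mitosis cannot be told apart from more transcript in each such cell. Within single lines the median difference was 0.105 in TET2M, 0.13 in TET2WT and 0.06 in Mock, with 32, 32 and 25 of the 36 genes higher at high glucose. Of all genes 44.3%, 49.4% and 43.3% were higher in the same order of lines. For all 36 genes the 95% interval of the glucose difference lay within 1.5-fold either way, as it did for 94.3% of all genes. The 3′ minus 5′ difference of the ACTB control probe sets, which grows as RNA is degraded, was also larger at high glucose in each line, at 1.93 and 1.65 in TET2M, 2.06 and 1.90 in TET2WT, and 2.02 and 1.94 in Mock for high and normal glucose. For GAPDH the same measure did not go one way, at 0.28 at both concentrations in TET2M, 0.35 and 0.25 in TET2WT, and 0.29 and 0.32 in Mock. The part of RNA quality in the members' differences was not tested.

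Among the genes of mitotic entry, 9 of 10 had a positive glucose difference, with a median of 0.092. AURKB, the Aurora kinase of the chromosomal passenger complex, read 7.59 with high and 7.27 with normal glucose in TET2M, 7.53 and 7.33 in TET2WT, and 7.76 and 7.42 in Mock. Every high-glucose value exceeded every normal-glucose value, with a difference of 0.29 ± 0.074 (adjusted p = 0.199, limma). The other AURKB probe set gave a difference of 0.033. It was higher at high glucose in TET2M and TET2WT, and read 4.98 with high and 5.28 with normal glucose in Mock. AURKA, the Aurora kinase of the spindle poles, read 9.76 and 9.56 in TET2M, 9.82 and 9.48 in TET2WT, and 9.89 and 9.68 in Mock. Its groups did not overlap either, and the difference was 0.25 ± 0.074 (adjusted p = 0.227, limma). CCNA2, which encodes cyclin A2, differed by 0.22 ± 0.074 and CDK1 by 0.13 ± 0.081. On the probe sets used, the B-type cyclins did not follow the same pattern. CCNB1 read 10.17 with high and 10.25 with normal glucose in TET2M, 10.21 and 9.97 in TET2WT, and 10.20 and 10.17 in Mock, a difference of 0.063 ± 0.088. On its second probe set every high-glucose value exceeded every normal-glucose value, at a difference of 0.22. CCNB2 read 9.87 and 9.79 in TET2M, 9.78 and 9.91 in TET2WT, and 9.74 and 9.93 in Mock. It was higher at high glucose in TET2M alone, and its difference of -0.08 ± 0.084 (adjusted p = 0.691, limma) was the lowest of the 36. PLK1, which drives mitotic entry and exit from several sites on the spindle, lay between 6.05 and 6.18 on all 6 arrays.

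TTK had the largest glucose difference of the 36. This kinase, also called MPS1, starts spindle checkpoint signalling at kinetochores that lack microtubules. It read 6.90 with high and 6.58 with normal glucose in TET2M, 6.84 and 6.52 in TET2WT, and 7.09 and 6.78 in Mock. The difference was nearly the same in each line, and its mean was 0.32 ± 0.070 (adjusted p = 0.168, limma). The checkpoint kinase gene BUB1 differed by 0.21 ± 0.075, and BUB1B, whose product BUBR1 inhibits CDC20, by 0.18 ± 0.080, with no overlap between the groups in either gene. CDC20, the activator of the APC/C that the checkpoint restrains, read 10.37 and 10.32 in TET2M, 10.37 and 10.26 in TET2WT, and 10.23 and 10.26 in Mock. That difference was 0.043 ± 0.074. All 6 checkpoint and APC/C genes had a positive difference, with a median of 0.12.

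All 6 mitotic kinesins also had a positive difference, with a median of 0.15. KIF23, the motor subunit of centralspindlin at the spindle midzone, read 8.38 with high and 7.95 with normal glucose in TET2M, 8.57 and 8.25 in TET2WT, and 8.52 and 8.37 in Mock. The lowest high-glucose value stood just above the highest normal-glucose value, and the difference was 0.30 ± 0.084 (adjusted p = 0.215, limma). KIF11, the kinesin-5 that pushes spindle poles apart, differed by 0.23 ± 0.074 and KIF14, a cytokinesis kinesin, by 0.22 ± 0.082. KIF2C, a kinesin that shortens microtubules at centromeres, differed by 0.02 ± 0.077.

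The centromere and kinetochore genes had the smallest median of the 7 role groups, at 0.038, with 3 of 4 positive. CENPE, the kinetochore motor that helps chromosomes reach the metaphase plate, read 8.12 with high and 7.88 with normal glucose in TET2M, 7.92 and 8.07 in TET2WT, and 7.73 and 7.94 in Mock. The lines went opposite ways, and the mean difference was -0.04 ± 0.11. It was 0.015 without the TET2WT arrays and 0.045 without the Mock arrays. CENPF read 9.91 and 9.93 in TET2M, 9.90 and 9.86 in TET2WT, and 9.88 and 9.85 in Mock, with a difference of 0.017 ± 0.071. Its 2 other probe sets that passed the filter gave 0.26 and 0.57. The spindle genes were positive in 6 of 6, with a median of 0.052 and with NUSAP1, a spindle-bundling protein, at 0.13 ± 0.071.

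Of the cytokinesis genes, ECT2 read 8.25 with high and 8.11 with normal glucose in TET2M, 8.31 and 7.90 in TET2WT, and 8.56 and 8.22 in Mock. Every high-glucose value exceeded every normal-glucose value, and the difference was 0.30 ± 0.084 (adjusted p = 0.217, limma). ANLN, a scaffold that joins actin and septins in the contractile ring, read 9.80 and 9.57 in TET2M, 9.86 and 9.74 in TET2WT, and 9.96 and 9.81 in Mock, with a difference of 0.17 ± 0.072. TOP2A, the topoisomerase that untangles sister chromatids, read 10.53 and 10.39 in TET2M, 10.62 and 10.50 in TET2WT, and 10.58 and 10.52 in Mock. Its groups did not overlap at a difference of 0.11 ± 0.071. The proliferation marker MKI67, which coats mitotic chromosomes, differed by 0.08 ± 0.085. Its other probe sets gave 0.21, 0.19 and 0.24. When limma's variance prior was allowed to follow the mean level, 5 members were called higher at high glucose, beside 573 of all genes (3.97%; 2.18% higher). These were AURKA (adjusted p = 0.0147), KIF23 (0.0244), ECT2 (0.0269), AURKB (0.0378) and TTK (0.0405), with the same differences.

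**Figure D3:**
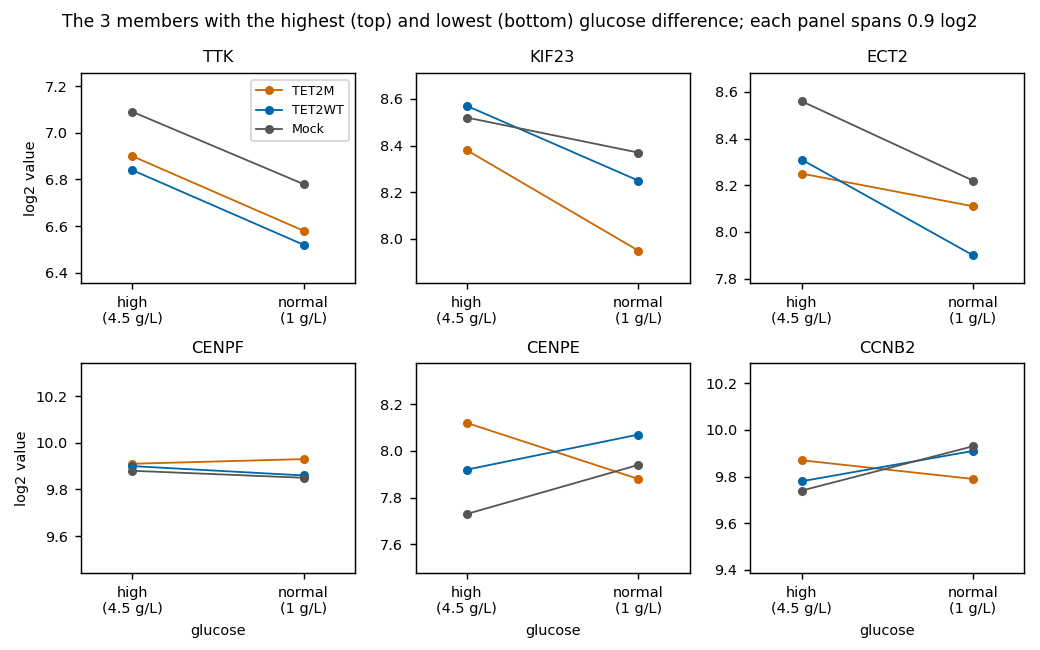
Log2 values at high and normal glucose (x axis) for the 3 genes with the highest glucose difference (TTK, KIF23 and ECT2, top) and the 3 with the lowest (CENPF, CENPE and CCNB2, bottom); each line joins the 2 arrays of a cell line and each panel spans 0.9 on the log2 scale. The 3 lines slope the same way in the upper panels, and CENPE and CCNB2 slope up to high glucose in TET2M only.

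TET2M was then set against Mock over the 2 glucose concentrations. No mitotic gene passed: 0 of 36 in limma, beside 14 of all genes (0.097%). At an unadjusted p under 0.05, 0 members were higher and 2 lower (KIF23 and KIF11), against 3.34% and 6.17% of all genes. The median difference was -0.0125 over the members and -0.02 over all genes. In 5 members both TET2M arrays exceeded both Mock arrays (12.8% of all genes), and in 7 both lay below (20.2%). All 36 intervals lay within 1.5-fold, as did 89.6% of those of all genes. KIF23, with the values given above, had the lowest difference, at -0.28 ± 0.10 (adjusted p = 0.474, limma), and its groups overlapped, since TET2M at high glucose stood just above Mock at normal glucose. MAD2L1, the checkpoint protein that binds CDC20, read 9.34 with high and 9.15 with normal glucose in TET2M, 9.04 and 9.19 in TET2WT, and 9.58 and 9.44 in Mock. On this probe set both TET2M values lay below both Mock values, by -0.27 ± 0.11. The second MAD2L1 probe set, at a mean of 8.96, gave a difference of 0 for this comparison. The third, at a mean of 3.81, gave -0.255. KIF11 read 8.43 and 8.16 in TET2M, 8.36 and 8.08 in TET2WT, and 8.59 and 8.45 in Mock, and TET2M differed from Mock by -0.23 ± 0.091. At the upper end stood DLGAP5, which steadies kinetochore microtubules. It read 8.48 and 8.58 in TET2M, 8.48 and 8.31 in TET2WT, and 8.30 at both concentrations in Mock, a difference of 0.23 ± 0.10 (adjusted p = 0.556, limma) with no overlap. CENPE followed at 0.17 ± 0.13, and this value was -0.045 without the TET2M array at high glucose. CENPA, the histone H3 variant that marks centromeres, read 7.41 and 7.40 in TET2M, 7.33 and 7.09 in TET2WT, and 7.23 and 7.30 in Mock, and TET2M exceeded Mock by 0.14 ± 0.11.

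TET2WT against Mock was the comparison with the most genes passed, 608 of all genes tested (4.21%), and 0 of the 36 mitotic genes were among them in limma. At an unadjusted p under 0.05, 0 members were higher and 4 lower (MAD2L1, KIF11, TTK and ECT2), against 8.78% and 11.4% of all genes. The median difference was -0.048 over the members and -0.01 over all genes, and 24 of the 36 were negative, against 51.8% of all genes. After quantile normalization the members' median was -0.0083, and with 1 array left out it lay between -0.085 and -0.039. On the probe sets used, both TET2WT arrays lay above both Mock arrays in 3 members (19.7% of all genes) and below them in 7 (23.8%). These 7 were CDK1, NEK2, MAD2L1, KIF11, KIF2C, HMMR and MKI67. The interval lay within 1.5-fold for 35 of the 36, as it did for 81.6% of all genes. The exception was MAD2L1, whose difference of -0.40 ± 0.11 was the lowest of the 36 (adjusted p = 0.132, limma) with an interval from -0.67 to -0.12. It was -0.24 without the TET2WT array at high glucose and -0.55 without that at normal glucose. Its 3 probe sets were all lower in TET2WT, at -0.40, -0.28 and -0.69. KIF11 followed at -0.30 ± 0.091 (adjusted p = 0.146, limma) and ECT2 at -0.29 ± 0.10 (adjusted p = 0.202, limma). With the variance prior following the mean level these 3 genes were called lower, at adjusted p = 0.00572 for MAD2L1, 0.0184 for KIF11 and 0.0414 for ECT2 (limma), beside 1528 of all genes (10.6%; 6.04% lower).

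At the upper end of TET2WT against Mock stood CDC25C, the phosphatase that removes the inhibitory phosphates of CDK1. It read 5.77 with high and 5.65 with normal glucose in TET2M, 5.87 and 5.63 in TET2WT, and 5.59 at both concentrations in Mock, and TET2WT exceeded Mock by 0.16 ± 0.098 (adjusted p = 0.429, limma). The second CDC25C probe set, at a mean of 4.53, had the opposite sign, at -0.055. CENPE differed by 0.16 ± 0.13. KIF4A, a kinesin that rides on chromosome arms and limits the length of the midzone, read 7.57 and 7.55 in TET2M, 7.77 and 7.62 in TET2WT, and 7.61 and 7.55 in Mock. Both TET2WT values stood above both Mock values, by 0.12 ± 0.090. MKI67 read 9.13 and 9.02 in TET2M, 8.97 and 8.76 in TET2WT, and 9.04 and 9.12 in Mock, and TET2WT differed from Mock by -0.22 ± 0.10 (adjusted p = 0.322, limma). Its 4 probe sets disagreed in sign, at -0.22, -0.29, 0.20 and 0.13.

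**Figure D4:**
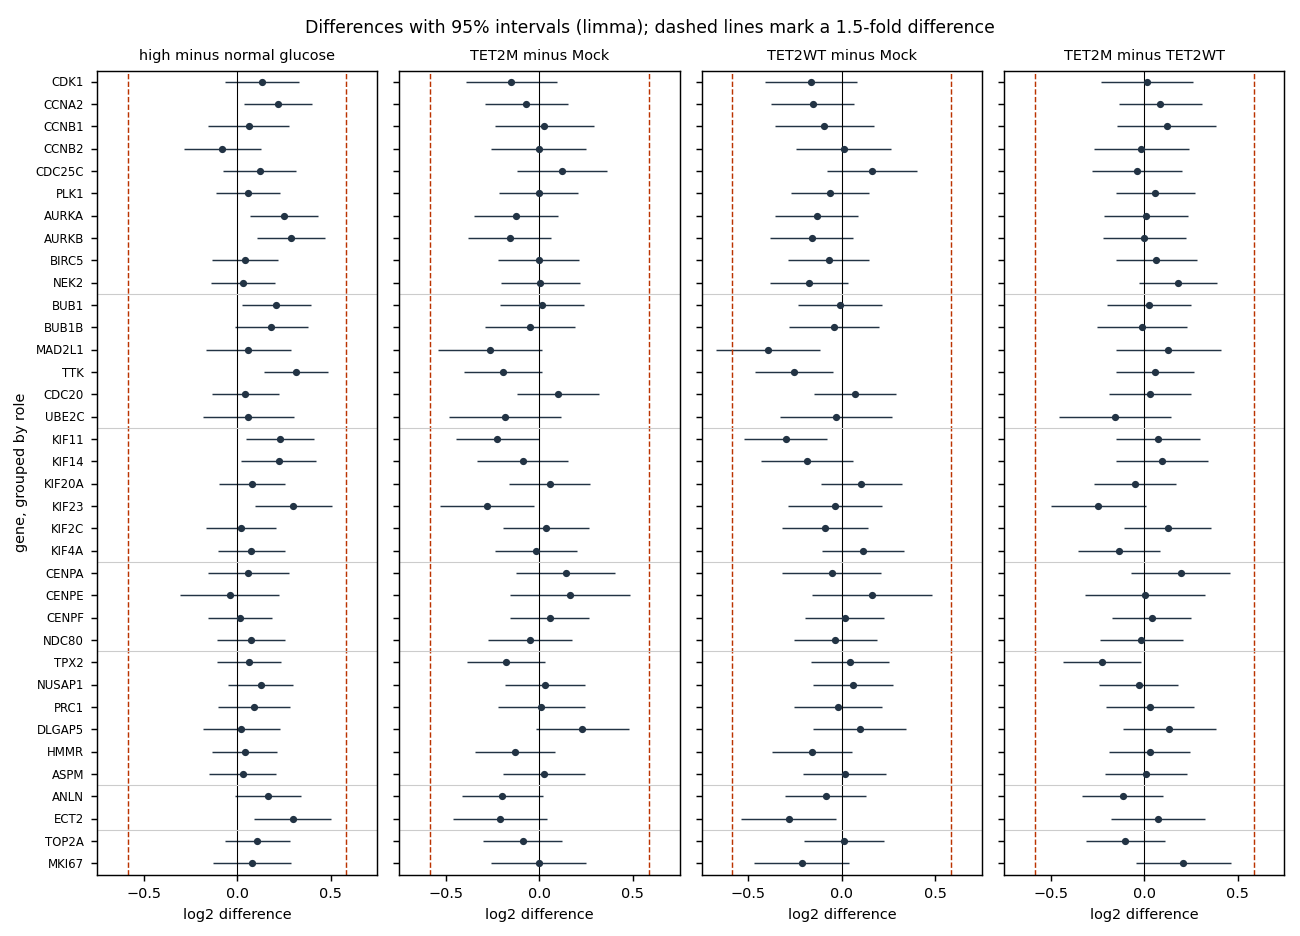
Log2 differences with 95% intervals from limma (x axis) for the 36 genes (y axis, grouped by role) in 4 comparisons; dashed lines mark 1.5-fold. All intervals but that of MAD2L1 in TET2WT against Mock lie between the dashed lines, and the points for glucose lie mostly right of 0.

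TET2M against TET2WT shares its arrays with both comparisons with Mock. Again 0 of 36 members passed in limma, beside 476 of all genes (3.3%). At an unadjusted p under 0.05, 0 were higher and 1 lower (TPX2), against 8.13% and 9.52% of all genes. The median was 0.028 over the members and 0 over all genes. Both TET2M arrays lay above both TET2WT arrays in 7 members (19.9% of all genes) and below in 2, KIF4A and TPX2 (21.2%). All 36 intervals lay within 1.5-fold, as did 83.1% of those of all genes. TPX2, which activates AURKA and starts microtubules around chromosomes, read 8.99 with high and 8.91 with normal glucose in TET2M, 9.20 and 9.15 in TET2WT, and 9.16 and 9.10 in Mock. The TET2M values were the lowest of the 6, and TET2M differed from TET2WT by -0.23 ± 0.085 (adjusted p = 0.254, limma). With the variance prior following the mean level TPX2 was the 1 member called, lower at adjusted p = 0.0394 (limma), beside 1249 of all genes (8.66%; 4.8% lower). KIF23 stood lowest, at -0.25 ± 0.10. The ubiquitin-conjugating enzyme of the APC/C, UBE2C, read 10.10 and 10.08 in TET2M, 10.39 and 10.10 in TET2WT, and 10.21 and 10.34 in Mock. TET2M differed from TET2WT by -0.16 ± 0.12 in UBE2C, and by 0.018 without the TET2WT array at high glucose. The highest differences were 0.21 ± 0.10 for MKI67, 0.20 ± 0.11 for CENPA and 0.18 ± 0.086 for NEK2, a kinase that parts the centrosomes. NEK2 read 7.56 and 7.54 in TET2M, 7.38 and 7.36 in TET2WT, and 7.57 and 7.52 in Mock, so that on this probe set the TET2WT arrays were the lowest ones at both concentrations. The second NEK2 probe set read 5.74 and 5.72 in TET2M, 5.59 and 5.63 in TET2WT, and 6.00 and 5.46 in Mock. There TET2WT was the lowest at high glucose and Mock at normal glucose.

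Whether glucose acted differently in TET2WT was tested as the glucose difference of TET2WT minus the mean of those of TET2M and Mock. The count passed was 0 of 36 members and 0 of all genes (0%) in limma. At an unadjusted p under 0.05 it was 0 of the members and 9.18% of all genes. The median was 0.045 over the members and 0.02 over all genes. The intervals were wide with 1 residual degree of freedom, and 26 of the 36 lay within 1.5-fold, as did 45.1% of those of all genes. UBE2C (0.35 ± 0.13), CENPA (0.27 ± 0.11) and CCNB1 (0.27 ± 0.11) stood highest, and MAD2L1 (-0.32 ± 0.10, adjusted p = 0.531, limma), CENPE (-0.17 ± 0.26) and AURKB (-0.13 ± 0.098) lowest. MAD2L1 was lower at high than at normal glucose in TET2WT and higher in the other two lines.

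The members' other probe sets gave a second reading of the same RNA. The 36 genes had 75 probe sets of their own, of which 66 passed the filter on low values, and 20 genes had at least a second one that passed. For glucose the second probe set had the sign of the first in 18 of 20 genes, with a median of 0.13. The sign was shared in 10 of 20 for TET2M against Mock, in 15 of 20 for TET2WT against Mock and in 12 of 20 for TET2M against TET2WT. Probe sets of a gene share the sample and are no replicates.

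Related genes outside the 36 were read in 8 lists of 214 genes, of which 204 were tested. For glucose 0 of them passed. All 41 tested G1/S and DNA replication genes had a positive difference (median 0.18), and so did 29 of 34 other kinetochore genes (median 0.14). Medians were 0.13 for the DREAM, B-MYB and FOXM1 regulators, 0.12 for other mitotic kinases and partners, 0.10 for other spindle and cytokinesis genes, 0.08 for condensin and cohesin, 0.043 for APC/C subunits and -0.037 for the CDK inhibitors and genes of cell cycle exit. FOXM1, the activator of many genes of the 36, differed by 0.15 ± 0.079 and MYBL2, which encodes B-MYB, by 0.05 ± 0.097. Neither passed in limma.

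Between TET2WT and Mock 6 of the 204 passed (2.94%, against 4.21% of all genes), 5 lower and 1 higher in TET2WT. BORA, which helps AURKA activate PLK1, read 6.98 with high and 6.74 with normal glucose in TET2M, 5.82 and 5.97 in TET2WT, and 6.89 and 6.69 in Mock. The TET2WT values lay below all others, and BORA fell by 0.90 in TET2WT relative to Mock (adjusted p = 0.0182, limma). The clamp loader gene RFC3 differed by -0.74 (adjusted p = 0.0159, limma) and SKA3, of the complex that couples kinetochores to microtubules, by -0.57 (adjusted p = 0.0265, limma). RFC5, another clamp loader gene, differed by -0.49 (adjusted p = 0.0429, limma) and PDS5B, a cohesin regulator, by -0.48 (adjusted p = 0.0422, limma). CDKN1C, the gene of the CDK inhibitor p57, read 6.32 and 6.90 in TET2M, 7.51 and 7.77 in TET2WT, and 6.38 and 6.73 in Mock. It rose by 1.09 in TET2WT relative to Mock (adjusted p = 0.00794, limma). BORA, RFC3, SKA3 and PDS5B lie on chromosome 13. All 8 tested list genes of that chromosome had a negative difference, with a median of -0.52 and 4 passed, and the 196 on other chromosomes had a median of -0.12 with 1 passed in each direction. None of the 36 members lies on chromosome 13. Chromosome 13 was looked at because earlier results of these data had shown it. With any 1 array left out, which leaves 1 residual degree of freedom, none of these 6 genes passed (adjusted p between 0.129 and 0.377, limma) and all kept their direction. The keratin gene KRT14 and the collagen-binding LUM also passed as lower in TET2WT than in Mock, at -2.40 ± 0.11 (adjusted p = 0.00044, limma) and -1.06 ± 0.13 (adjusted p = 0.0137, limma). They were the 1 of 5 keratinocyte and the 1 of 6 fibroblast markers tested that passed. Like those of the 6 genes above, their calls rest on all 6 arrays. With 1 array left out the difference lay between -2.53 and -2.27 for KRT14 and between -1.26 and -0.86 for LUM. On a log2 scale, the summed level of the 7 keratinocyte markers with a probe set was 9.55 and 9.43 in TET2M, 9.48 at both concentrations in TET2WT, and 9.65 and 9.60 in Mock. That of the 8 fibroblast markers was 6.76 and 6.61 in TET2M, 6.56 and 6.37 in TET2WT, and 6.56 at both concentrations in Mock. Of 7 tested melanocyte markers MITF passed, as lower in TET2WT, at -0.60 ± 0.11 (adjusted p = 0.0433, limma), while 5 of the 7 had a positive difference, with a median of 0.115. The MITF call also rests on all 6 arrays, and with 1 left out its difference lay between -0.69 and -0.50. The summed level of the 11 melanocyte markers with a probe set was 10.32 and 10.40 in TET2M, 10.26 and 10.47 in TET2WT, and 10.29 and 10.35 in Mock. The part of these markers in the differences was not tested.

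For TET2M against TET2WT the 4 chromosome 13 genes passed with the opposite sign, as higher in TET2M, and CDKN1C and MAD1L1 as lower, which made 6 of 204 (2.94%), against 3.3% of all genes. None of the 6 passed with any 1 array left out, and all kept their direction. BORA rose by 0.97 in TET2M relative to TET2WT, RFC3 by 0.66, SKA3 by 0.60 and PDS5B by 0.58. MAD1L1, whose product holds MAD2L1 at kinetochores, read 4.71 with high and 4.28 with normal glucose in TET2M, 5.35 and 5.36 in TET2WT, and 4.94 and 4.78 in Mock. It fell by 0.86 in TET2M relative to TET2WT (adjusted p = 0.0252, limma). This comparison uses the same TET2WT arrays as that with Mock. Between TET2M and Mock, and for the TET2WT-specific glucose response, 0 of the 204 passed.

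**Figure D5:**
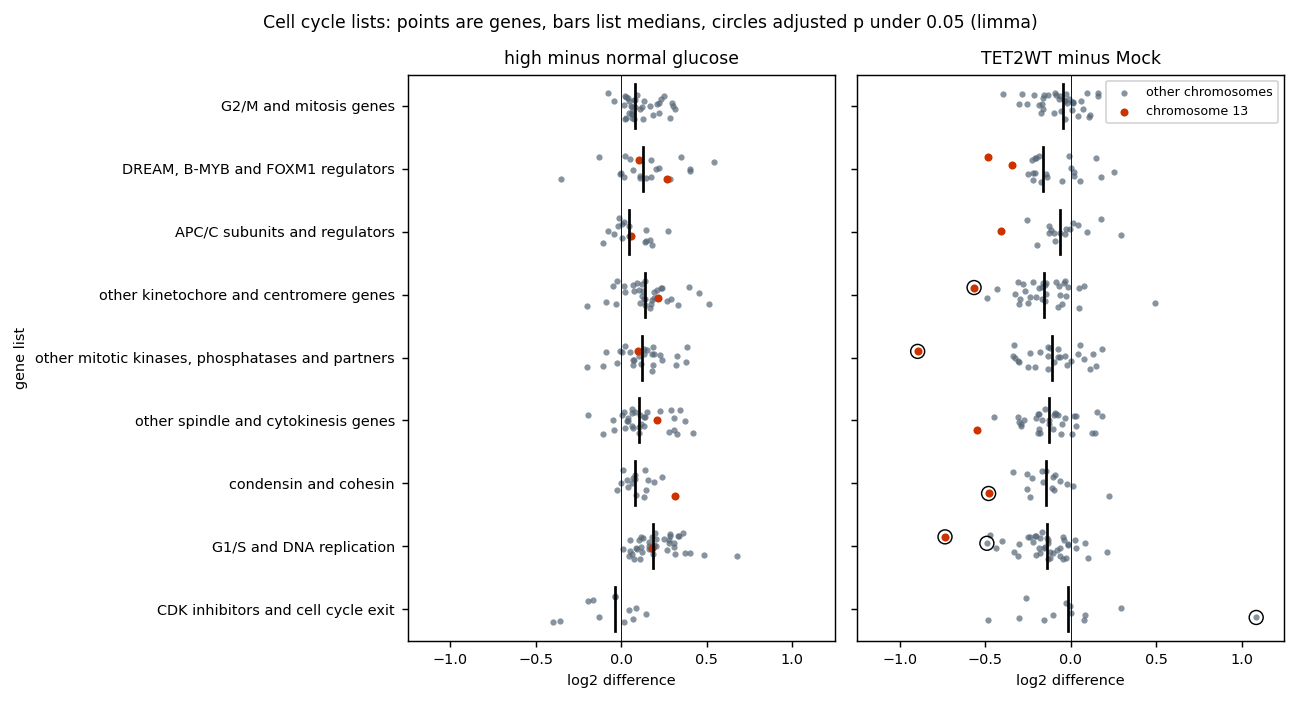
Log2 differences of single genes (points) in the 36 mitotic genes and the 8 other cell cycle lists (y axis), for high against normal glucose (left) and TET2WT against Mock (right); vertical bars are medians, circled points had an adjusted p under 0.05 in limma, and red points lie on chromosome 13. The circled points of the right panel are 5 lower genes, 4 of them red, and CDKN1C at 1.09; none of the 36 is circled.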

How the data were processed

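RNA of 6 cultures was hybridised to 1 array each. The authors used Affymetrix Expression Console to obtain the deposited log2 values, as the submitters' processing notes record. The version, background correction and summary method were not given in the sources used here. Sorted columns agreed to within 0.12, which shows a common scaling before deposit. Such scaling hides a change shared by most genes.

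Of 54675 probe sets, 41097 had 1 gene symbol in the platform annotation, 1801 several and 11777 none. Symbols were updated by gene ID through RefSeq GRCh38.p14. Probe sets below the 40th percentile of means (2.64) were left out, and the probe set with the highest mean stood for each gene, which left 14428 genes. limma 3.58.1 in R 4.3.3 fitted line and glucose over all 6 arrays (2 residual degrees of freedom, prior 3.97), and a model with a glucose term for TET2WT alone (1 residual, prior 1.72). Tests were two-sided, with p-values adjusted by Benjamini-Hochberg over all genes tested and a threshold of 0.05. Within a line there are 2 arrays and no test. The scripts were tested on simulated data. Plots used matplotlib 3.10.9 under Python 3.11.15.

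The 36 genes, the lists and the tests were chosen with earlier results of these data known. Named with values were the 3 highest and 3 lowest members of each comparison and the highest and lowest by level of each role, and the list genes that passed. AURKA, CCNA2, CDK1, PLK1, BUB1, BUB1B, KIF14, NUSAP1, HMMR, FOXM1 and MYBL2 were added after their values had been seen. Alternatives were quantile normalization, other filters, the mean over probe sets, an intensity trend in the variance prior, leaving out arrays or lines, and leaving out model terms.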

Additional observations from a re-analysis of the deposited data

How the results depend on the processing

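Line and glucose were terms of the model, so arrays were paired within lines for glucose and within concentrations for the line comparisons. No further pairing was possible, because the labels give no replicate numbers and each combination has 1 array. The count of passing members was 0 in all 5 comparisons and under all alternatives but the intensity trend, which gave 5 for glucose, 3 for TET2WT against Mock and 1 for TET2M against TET2WT. The count over all genes depended on the setting. For glucose (1 gene) it was 5 with quantile normalization, 2 with no filter, 5 with the stricter filter, 5 with the mean over probe sets, 573 with the trend, 0 with no line term, and 0 without TET2M, TET2WT or Mock. For TET2M against Mock (14) it was 22 with the stricter filter, 25 with the mean over probe sets, 149 with the trend, 7 with no glucose term and 0 without the TET2WT line. For TET2WT against Mock (608) it was 1528 with the trend, 318 with no glucose term and 16 without the TET2M line, and for TET2M against TET2WT (476) 1249, 267 and, without Mock, 0. With single arrays left out, which leaves 1 residual degree of freedom, it ranged from 0 to 0 for glucose, TET2M against Mock and TET2M against TET2WT, and from 0 to 16 for TET2WT against Mock. Quantile normalization turned the split of TET2WT against Mock to 374 higher and 304 lower, against 290 and 318. The members' median moved in TET2M against Mock from -0.0125 to 0.0079 with quantile normalization and between -0.056 and -0.0125 with single arrays left out, and in the TET2WT-specific response from 0.045 to 0.005 with the mean over probe sets. The sign turned for CENPE in glucose (0.015 without TET2WT, 0.045 without Mock; -0.18 to 0.045 with arrays left out), CENPE in TET2M against Mock (-0.045 to 0.38 with arrays left out), UBE2C in TET2M against TET2WT (-0.33 to 0.018) and AURKB in the TET2WT-specific response (0.068 with the mean over probe sets). With 1 array left out, differences that moved by over 1.5 times without turning sign were, for TET2M against Mock, DLGAP5 (0.14 without TET2M at normal glucose), KIF23 (-0.17 without Mock and -0.18 without TET2M, both at normal glucose), MAD2L1 (-0.17 without TET2M at normal glucose) and CENPA (0.043 without Mock at high and 0.24 without Mock at normal glucose). For TET2WT against Mock they were CDC25C (0.07 without either high-glucose array and 0.25 without either normal-glucose array of these lines), KIF4A (0.06 without TET2WT at high glucose), CENPE (0.033 to 0.29) and MAD2L1, given above. For TET2M against TET2WT they were CENPA (0.06 without TET2WT at normal and 0.33 without TET2WT at high glucose), MKI67 (0.11 without TET2WT at normal glucose) and KIF23 (-0.15 without TET2M at normal glucose), and for glucose CCNB2 (-0.16 to -0.025) and CENPF (0.005 to 0.035). The glucose difference of CENPF was 0.28 with the mean over probe sets, against 0.017 on the probe set used. The median for TET2WT against Mock was -0.0083 with quantile normalization. Of the other alternatives for named members, 338 kept sign and side of the threshold and 7 passed with the trend. Except for fewer arrays or other genes tested, the cause was not tested. Depth does not apply to arrays; signal over background was not given in the files used here.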
